A study of Danio rerio with 18 samples.

Results

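Unexposed zebrafish larvae were compared with adult fish inside each array. The comparison uses the control arrays alone, 5 of the 18 scans of the series, chosen by their sample titles. Each array held Cy5-labelled RNA of whole larvae and Cy3-labelled RNA of a common adult reference, so that every spot gives a log2 ratio of larval over adult signal. The larvae were kept in egg water with the vehicle, 0.05% ethanol. Exposure began 3 h after fertilization and lasted 7 days, and the labels give an age of 7 days post-fertilization. The reference was total RNA of whole wild-type adults, pooled from males and females at 9 to 1. The methods state that 50 larvae were pooled for a replicate. The larvae of the other 13 scans, which received bisphenol A (BPA) at 500, 1500 or 4500 µg/L, enter only where their ratios are set beside those of the controls.

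A zebrafish larva of this age swims and hunts, has a working heart, gut, liver and retina, and is still growing every tissue. It has no mature gonads, whereas adult females carry ovaries filled with growing oocytes. Egg coat proteins come from the oocyte, and the yolk precursor vitellogenin comes from the adult female liver under estrogen. Red cells change from larval to adult globins during juvenile life, and scales, much of the bone and the lymphoid organs also form later. A difference between whole larvae and whole adults can come from the number of cells of a type or from the RNA that each cell holds, and bulk RNA cannot tell these apart. All arrays carried the larvae in Cy5, so a dye effect of a probe cannot be told apart from a difference between larvae and adults. The reference was a single RNA pool, and its own spread is in no p-value below.

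Control replicates 4 and 5 had identical larval foreground values for 99.83% of their 23232 spots, against at most 0.31% for any other pair of control scans, and were averaged as 1 array, replicate 4 below. This left 4 arrays. The authors had kept a normalized ratio for 6578 to 19980 spots of a control scan, and 8663 probes had kept values on at least 3 of the 4 arrays. Signals were low, since only 17.9% to 32.8% of the spots were above background in the larval channel and 43.9% to 75.7% in the adult channel (at least 50% of a spot's pixels over the background by 2 SD). Replicate 4 stood apart. Over all 22980 probes its ratios correlated with those of the other arrays at r = 0.37 to 0.50, whereas replicates 1 to 3 correlated with each other at 0.70 to 0.75 (across probes, which share arrays and printing and are not independent).

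In limma's test of each mean ratio against 0, with Benjamini-Hochberg adjustment over all 8663 probes and calls at an adjusted p under 0.05, 613 probes were higher in larvae (7.08%) and 1412 were lower (16.3%). With a mean log2 ratio of at least 1 in size, 164 were higher (1.89%) and 1110 lower (12.8%). The median log2 ratio of the 613 higher probes was 0.84, and 546 of them were above background in the larval channel on 3 or 4 arrays. Of the 1412 lower probes 1164 were above background in the larval channel on none of the 4 arrays, so that the size of most lower ratios is uncertain. For such genes a fold computed from the background is given as "at least". It sets the mean adult signal against the larval signal, the latter raised on each array to the dimmest spot that was above background. An undetected larval signal may lie above that spot, so this fold is an estimate and not a strict lower limit. Without replicate 4, 737 probes were higher and 1729 lower, and without replicate 3, 160 and 1006. Wherever 1 array was left out, 2 kept values per probe were enough. The adjustment then ran over 13552, 13247, 9200 and 8793 probes without replicates 1, 2, 3 and 4. With the ratios that the authors normalized, 605 were higher and 745 lower, or 31 and 173 with a size of at least 1, so that the sizes below hold for the background correction used here.

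The direction of the calls followed where a probe stood in the spot list. The spot numbers run in 48 blocks of 484 spots, and control spots recur every 8 positions, from which 61 plates of 384 wells were inferred as the order of printing. The files do not state this layout. The first 43 plates hold 16512 spots, the first probe set, and the other 18 plates the second. The median log2 ratio of the first set lay between 0.07 and 0.09 on the 4 arrays, and that of the second set between -0.47 and -0.29. On the BPA arrays the second set's median ranged from -0.38 to 0.19. Among the called probes, the first set gave 501 higher and 183 lower (8.99% and 3.29% of its 5570 tested probes), and the second set 112 higher and 1228 lower (3.63% and 39.8% of 3089).

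**Figure D1:**
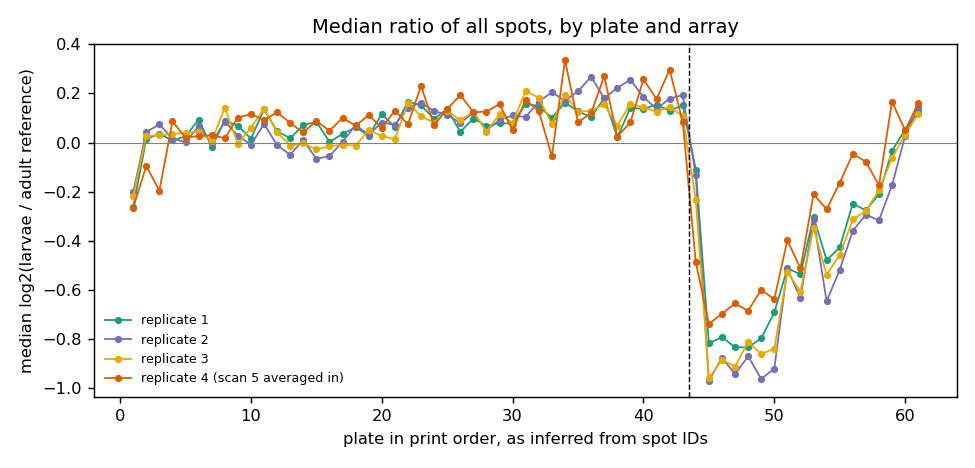
Median log2 ratio of larvae over the adult reference (y axis) for all spots of each of 61 inferred printing plates (x axis), 1 line per control array. The dashed line marks the end of the first probe set, after plate 43. On all 4 arrays the medians stay within 0.34 of 0 up to that line, lie between -0.97 and -0.60 on plates 45 to 49 and return to near 0 on plates 60 and 61.

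The same genes also differed between the sets. For 844 genes with a probe in each, the median log2 ratio was 0.08 for the probes of the first set and -0.40 for those of the second, and 658 of the 844 were lower in the second. Whether probe design or printing lies behind the difference within these genes was not tested. When the loess curve was fitted separately in each set, an alternative chosen after seeing the data, 583 of the 613 higher and 1095 of the 1412 lower probes kept their call, and 748 probes were called higher in all (8.63%) and 1164 lower (13.4%). Separate curves did not even out the calls, since the second set still gave 252 higher and 917 lower of 3089. With each plate centred on its median, another alternative chosen after seeing the data, it gave 525 higher and 833 lower. Then 1001 of the 1412 lower probes kept their call, 38 changed sign and 16 named genes lost their call. For the named genes of the second set the value with separate curves, or its range, is given as well.

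Different probes of a gene often gave different ratios. Among 162 genes with 2 tested probes in the first set, the log2 ratios of both probes correlated at r = 0.17 and had the same sign in 84 genes (51.9%). At least 1 probe was called in 31 of these genes and both in 3, with the same direction in all 3. The mean intensities of both probes correlated at r = 0.07, and at -0.02 over 1020 genes with every spot kept. Whether each probe measures the gene it is named for was not tested. Repeated spots with the same sequence identifier agreed for some genes, with an SD of 0.14 over 186 spots of actb2, the beta actin control, and 0.14 over 14 spots of gapdh. They did not for cxcr4a (SD 0.73 over 15 spots), ccnd1 (SD 0.69 over 15 spots) or vtg3 (SD 0.49 over 15 spots). The spots of ccnd1 and vtg3 lie in both probe sets, so their SD also holds the difference between the sets. A gene measured by 1 probe is thus a statement about that probe.

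**Figure D2:**
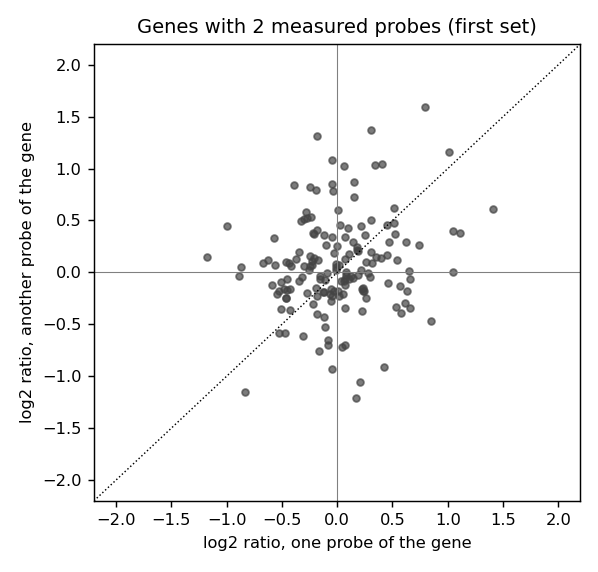
Log2 ratio of larvae over the adult reference for 162 genes with 2 tested probes in the first set, 1 probe on each axis and 1 point per gene (means of the control arrays). The dotted line marks equal values, and the points scatter around both zero lines with r = 0.17.

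The 10 called probes with the highest mean ratio, of the same sign on every array, belonged to bcas2, ivns1abpa, per2, gab1, mcm7, anxa3b, clptm1, sap130b, nudc and dmtn, at 1.37 to 1.61 on the log2 scale, or 2.58- to 3.05-fold. Of these, 9 lie in the first probe set, and clptm1 lies in the second (1.59 with separate curves). All 10 kept their call with separate curves, and their mean ratios in the BPA groups, which share the reference RNA, were above 0 in all 3 groups, from 0.04 to 1.74.

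The gene ivns1abpa, which encodes a kelch-repeat protein, had log2 ratios of 1.50, 1.26, 1.79 and 1.82 on replicates 1 to 4 (mean 1.59 ± 0.18 SE, adjusted p = 0.00026 in limma), and both channels were above background on all 4 arrays. Its second tested probe stood at 0.79. The replicative helicase subunit mcm7 had 1.76, 1.23, 1.17 and 1.50 (mean 1.41 ± 0.18, adjusted p = 0.000486), and dmtn, the actin-bundling dematin of the red cell membrane, had 1.55, 1.18, 1.47 and 1.28 (mean 1.37 ± 0.17, adjusted p = 0.00042). The 4 arrays of these genes lay close together, all above 1. For per2, a repressor of the circadian clock, the 3 arrays with a kept value gave 1.61, 1.67 and 1.40 (mean 1.56 ± 0.21, adjusted p = 0.000861).

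Other leading genes rested more on single arrays. The splicing factor bcas2 had 0.56, 1.82 and 2.44 on replicates 1, 3 and 4 and lost its call without replicate 3 (1.50, adjusted p = 0.066). The annexin anxa3b had 0.64, 1.59 and 1.98 on replicates 2, 3 and 4 and also lost its call without replicate 3 (1.31, adjusted p = 0.065). For clptm1, replicate 4 stood at 2.76 and the other arrays between 0.88 and 1.07. Gab1, a docking protein of growth factor receptors, averaged 1.52 ± 0.20, but its other tested probe averaged -1.20.

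The genes lowest in larvae were led by ppiaa, which encodes the abundant prolyl isomerase cyclophilin A. Its log2 ratios were -7.40, -6.08, -6.62 and -4.61 (mean -6.17 ± 0.38, adjusted p = 3.18e-05). The adult signal was above background on all 4 arrays and the larval signal on none (at least 32.5-fold by the rule above). Of the 10 lowest genes it alone lies in the first probe set. The mean ratios of the BPA groups, which share the reference RNA, were -6.26, -6.18 and -4.91 at 500, 1500 and 4500 µg/L. Only 1 of the 2 ppiaa probes on the array could be tested. The related gene ppiab stood at 0.24 ± 0.17 (adjusted p = 0.36 in limma), with both channels above background on all 4 arrays.

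The other 9 lowest genes, all of the second set, were si:ch211-226m16.2, psmb9a, fan1, sebox, pbldp, zgc:162936, c3b.2, khdrbs1a and cmasa, at -3.16 to -2.77, with no larval signal above background on any array. They include psmb9a, an immunoproteasome subunit, fan1, a DNA repair nuclease, sebox, a homeobox factor known from mouse oocytes, and c3b.2, a complement component. With separate curves they stood at -3.04 to -1.96, and all 9 kept their call, as they did without any 1 array. The fold computed from the background was at least 5.44 for si:ch211-226m16.2 and at least 3.40 for fan1. For the other genes it lay between at least 1.72 and at least 2.50. The other tested probe of psmb9a, brighter and of the first set, averaged -0.10 and did not pass limma's test (adjusted p = 0.79). That brighter probe stands for psmb9a in the gene groups below. A second tested probe of cmasa averaged -0.38, and 2 further probes of khdrbs1a averaged -1.89 and -0.76.

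Within the first set, nr3c1, clic1 and acyp1 were low, which were picked after their values were seen. The glucocorticoid receptor nr3c1 had -3.01, -2.44, -2.48 and -0.54 (mean -2.12 ± 0.35, adjusted p = 0.00202), with replicate 4 nearer to 0 than the other arrays. The channel protein gene clic1 had -1.98, -1.73, -1.48 and -1.75 (mean -1.73 ± 0.17, adjusted p = 0.000151), where the arrays lay close together. The acylphosphatase gene acyp1 averaged -1.65 ± 0.19. In all 3 the larval signal was above background on no array (at least 2.41-, 1.86- and 1.63-fold).

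**Figure D3:**
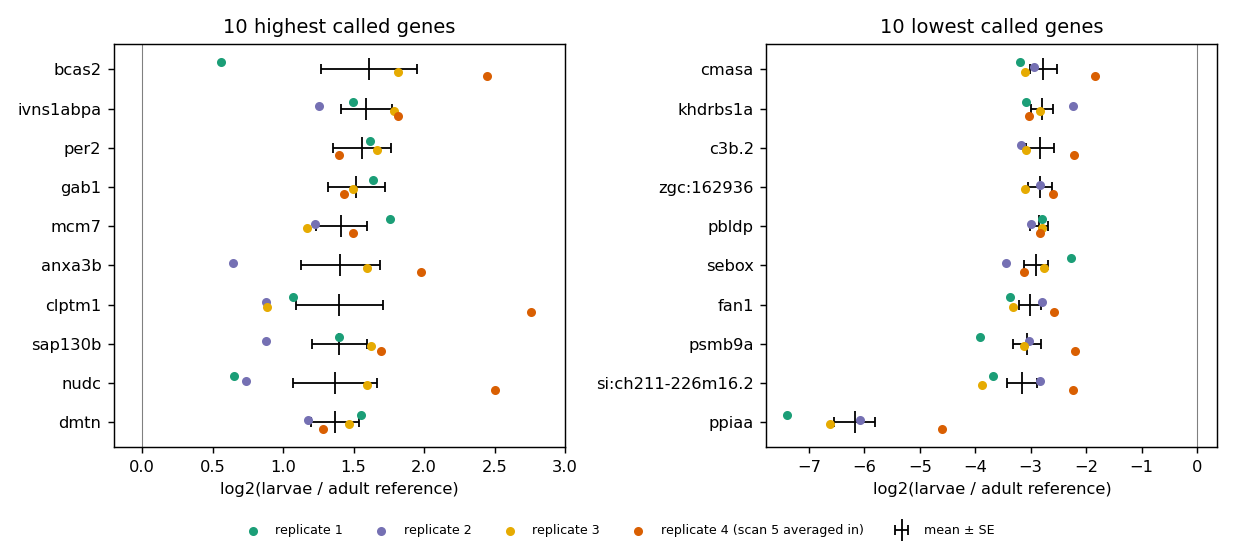
Log2 ratio of larvae over the adult reference (x axes) for the 10 highest and the 10 lowest called genes, with 1 point per control array and bars for the mean ± SE of limma. The highest genes lie between 0.56 and 2.76, and ppiaa, near -6.17, stands below the other low genes.

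Gene groups were read on 1 probe per gene, the brightest tested, which left 3977 genes. Of these 287 were higher (7.22%) and 470 lower (11.8%), with a median log2 ratio of -0.02. In the first set alone, 218 of 2630 genes were higher (8.29%) and 81 lower (3.08%). With separate curves 386 genes were higher (9.71%) and 382 lower (9.61%), without replicate 4, 334 of 4045 (8.26%) and 614 (15.2%), and with every spot kept, 321 of 9264 (3.47%) and 850 (9.18%). The first-set counts take the brightest first-set probe of a gene, also where a second-set probe of it is brighter. Each group with a tested member is described below by its counts and its median, to be read beside these values. The medians of the 29 groups with a tested member lay between -0.74 and 0.12.

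**Figure D4:**
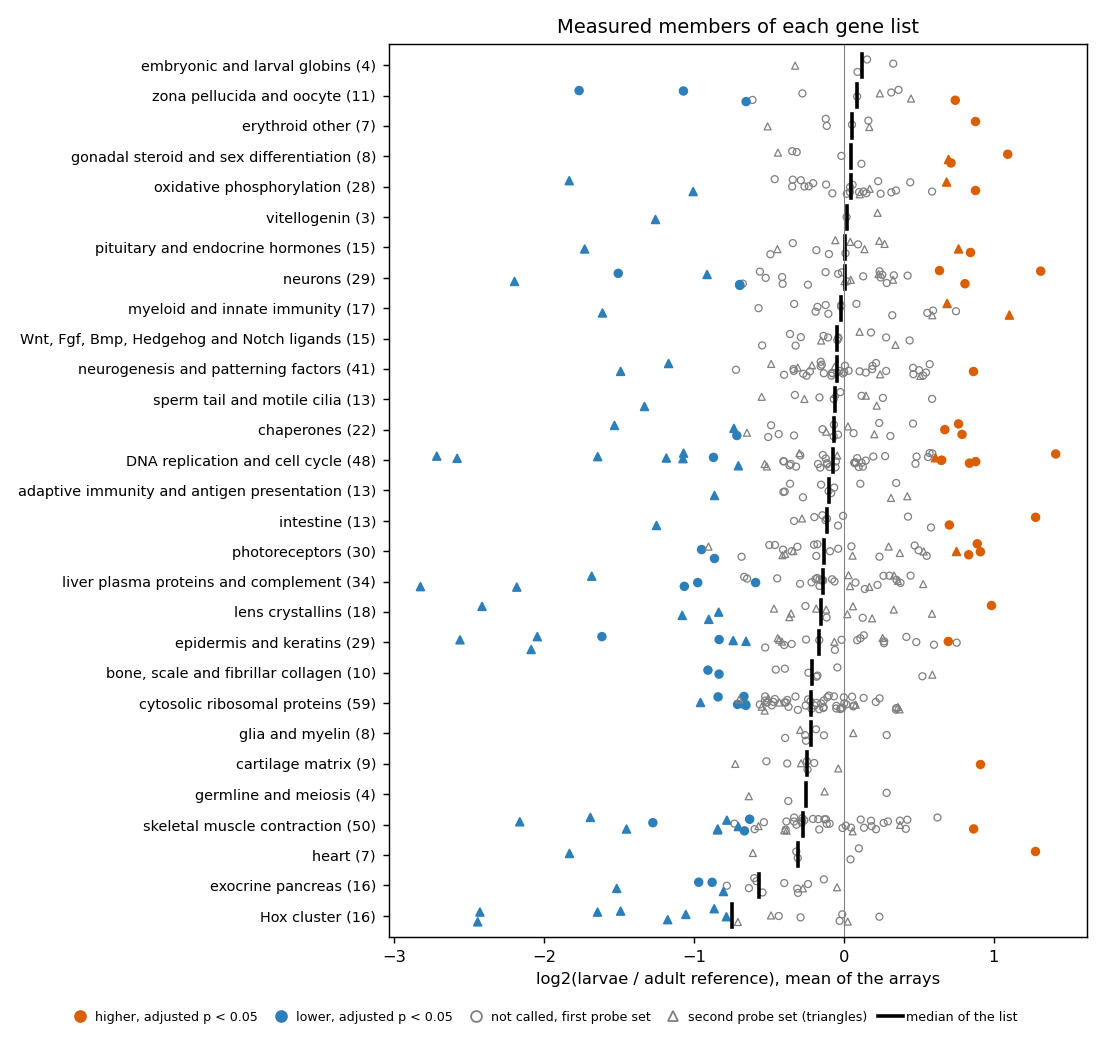
Mean log2 ratio of larvae over the adult reference (x axis) for the tested members of 29 gene lists (y axis, with the number of members), circles for the first probe set and triangles for the second. Filled symbols passed the adjusted p of 0.05, and black bars are list medians. Most called members lower than -1 are triangles. The Hox list has the lowest median here, -0.74, but -0.35 with separate curves, where the exocrine pancreas is lower (-0.50).

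The called egg coat genes were lower in larvae. Of 11 tested members of the list of zona pellucida and oocyte genes, 3 were lower and 1 was higher. These are 27.3% and 9.09%, against 11.8% and 7.22% of all genes. In the first set 3 of 9 were lower and 1 was higher (the list's median was 0.09). The egg coat glycoprotein zp3 had -1.76, -1.22, -1.16 and -0.14 (mean -1.07 ± 0.25, adjusted p = 0.014), with replicate 4 near 0. The related zp3a.1 had -2.37, -1.07 and -1.86 on replicates 1, 3 and 4 (mean -1.77 ± 0.28, adjusted p = 0.00209). Its larval signal was above background on no array. The fold computed from the background came out below 1, so it gives no bound on the size of this ratio. For zp2.6, with all signals above background, the values were -0.50, -0.34, -0.67 and -1.09 (mean -0.65 ± 0.19, adjusted p = 0.0344).

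The higher member was not an egg coat gene. The carbonic anhydrase gene ca15b, known from the zebrafish oocyte and early germ plasm, was higher in larvae on every array, at 0.68, 0.43, 0.92 and 0.95 (mean 0.74 ± 0.18, adjusted p = 0.0147). The other tested members did not pass the test. They were zp2.2 (-0.61 ± 0.23), zp3d.1 (0.32 ± 0.22), zp3.2 (0.37 ± 0.21), the oocyte growth factor gdf9 (second set, 0.45 ± 0.19, or 0.68 with separate curves, adjusted p = 0.026), the oocyte polarity gene buc (-0.28 ± 0.22), ccnb2 (0.09 ± 0.23) and, in the second set, dnajc5gb (0.24 ± 0.24, or 0.38 with separate curves). Of the 4 calls, that of zp3a.1 held without any 1 array. The call of zp3 was lost without replicate 1 (-0.84) or 3, that of ca15b without 1 or 3 and that of zp2.6 without 1, 2 or 3, with adjusted p up to 0.18. Without replicate 4, 1 member was higher and 4 lower, and zp2.2 was called at -0.87 (adjusted p = 0.0018).

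Vitellogenins gave 1 call among 3 tested genes, a lower one (33.3%, against 11.8% of all genes, median 0.02). Vtg5, of the second set, was above background in both channels on all 4 arrays and had 0.36, -0.11, 0.08 and 0.57 (mean 0.23 ± 0.19, adjusted p = 0.431, and 0.38 with separate curves). With each plate centred on its median, an alternative chosen after seeing the data, vtg5 stood at 1.06 (adjusted p = 0.0022). Vtg4, of the second set, had -1.22, -1.61 and -0.95 on replicates 2 to 4 (mean -1.26 ± 0.22, adjusted p = 0.00412, at least 1.46-fold), and the call was lost with separate curves (-0.56, adjusted p = 0.074) and without replicate 3 (-1.08, adjusted p = 0.064). Vtg2 had 0.02 ± 0.22, with larval signal above background on no array. With every spot kept, vtg3 stood at -0.65 ± 0.16 (adjusted p = 0.025), vtg6 at -0.63 ± 0.20 and vtg7 at 0.30 ± 0.21, and none of these 3 had larval signal above background.

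Larval globins gave no call, and adult globins could be read only with every spot kept. None of the 4 tested larval globin genes passed limma's test, none had an unadjusted p under 0.05, and their median was 0.12. The alpha globin hbae1.1 was above 0 on every array, at 0.21, 0.14, 0.43 and 0.54 (mean 0.33 ± 0.17, adjusted p = 0.21), and its other 3 tested probes averaged 0.25, 0.36 and 0.72. The beta globin hbbe1.1 stood at 0.16 ± 0.17 on its brighter probe and -0.25 on the other, hbae3 at 0.09 ± 0.25 and hbbe3, of the second set, at -0.32 ± 0.21, or -0.094 with separate curves. Larval signal was above background on no array for hbae3 and on 1 for hbbe3. Hbbe2 and the 3 adult globins on the array had too few kept values. With every spot kept, hbba1, a main adult beta globin, had -1.06, -0.26, -0.54 and -0.99 (mean -0.71 ± 0.19, adjusted p = 0.038), with adult signal above background on 1 array and larval signal on none. Hbba2 stood at -0.08 ± 0.16, hbaa2 at 0.14 ± 0.16 and hbbe2 at 0.17 ± 0.19. The larval signal of hbba2 and hbbe2 was above background on no array, and that of hbaa2 on 3. Of 7 other erythroid genes, 1 was higher (14.3%, against 7.22% of all genes) and none lower (median 0.05). The higher gene was nt5c2l1, a nucleotidase, at 0.87 ± 0.17 (call lost without replicate 3, adjusted p = 0.057).

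Plasma protein genes of the liver were lower where they were called. Of 34 tested genes 6 were lower (17.65%, against 11.8% of all genes) and none higher (median -0.14). In the first set 3 of 25 were lower, against 3.08% of all genes there, and none higher. The iron carrier transferrin, tfa, had -1.52, -0.93, -1.37 and -0.44 (mean -1.06 ± 0.22, adjusted p = 0.00625). Its larval signal was above background on no array (at least 1.51-fold), and the call was lost without replicate 3 (adjusted p = 0.056). Apoa1a, an apolipoprotein of high-density lipoprotein, had -1.55, -1.05 and -1.31 on replicates 1 to 3 but 0.01 on replicate 4 (mean -0.97 ± 0.26, adjusted p = 0.0227), and leaving out any of replicates 1 to 3 ended the call (adjusted p up to 0.13). In the second set, the complement genes c3b.2 and cfd and the adhesion protein gene vtna averaged -2.83, -2.18 and -1.68, or -2.08, -1.33 and -1.15 with separate curves. With separate curves 2 members of the list were higher and 7 lower.

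Enzymes of the exocrine pancreas had ratios below 0 in all 16 tested genes, with a median of -0.56, the same in the 12 of the first set. This compares with 52.5% of all genes below 0. Only 4 passed the test, all lower (25%, against 11.8% of all genes). The trypsin gene prss59.1 had -1.01, 0.10, -1.56 and -1.41 (mean -0.97 ± 0.27, adjusted p = 0.0298), where replicate 2 was the exception. The lipase gene cel.2 averaged -0.88 ± 0.26 and cela1.3, an elastase of the second set, -1.51 ± 0.27 (-0.94 with separate curves). The fourth, zgc:100868 of the second set, averaged -0.80 ± 0.22 and lost its call with separate curves (-0.31, adjusted p = 0.30). Leaving out replicate 1 or 3 ended the calls of prss59.1, cel.2 and zgc:100868, and leaving out replicate 2 that of zgc:100868 as well (adjusted p up to 0.31). With every spot kept, 1 of 24 members was called, lower, the median was -0.28 and cel.2 stood at -0.56 (adjusted p = 0.23).

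Skeletal muscle genes were lower in 10 of 50 cases (20%, against 11.8% of all genes) and higher in 1 (2%, against 7.22%), with a median of -0.27. In the first set, 4 of 40 were lower and 1 higher, against 3.08% and 8.29% of all first-set genes. The calcium buffer pvalb4 had -0.96, -1.38 and -1.48 on replicates 1, 3 and 4 (mean -1.27 ± 0.22, adjusted p = 0.00326, at least 1.62-fold). Tnni2b.1, a fast troponin I of the second set with all signals above background, had -0.97, -0.71, -1.09 and -0.60 (mean -0.84 ± 0.18, adjusted p = 0.00762, and -0.86 with separate curves), and lost its call without replicate 3 (adjusted p = 0.089). Tnni2b.1 was picked after its values were seen. The second-set genes actc2 and smpx averaged -2.16 and -1.69, or -1.25 and -0.80 with separate curves.

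The brightest muscle genes did not pass the test. The creatine kinase ckma averaged -0.38 ± 0.20 on its brightest probe, of the second set (-0.22 with separate curves), and -0.63 on the other, and the actin actc1b averaged -0.53 ± 0.19 (adjusted p = 0.0716), or -0.67 without replicate 4 (adjusted p = 0.011). The higher gene was the tropomyosin tpm3, at 0.43, 0.55, 0.99 and 1.50 (mean 0.87 ± 0.22, adjusted p = 0.0173), whose other tested probe averaged -1.89. It lost its call without replicate 3 (adjusted p = 0.11).

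Nppa, slc15a1b and wt1a, each measured by 1 tested probe, were higher in larvae. Nppa, the atrial natriuretic peptide of the heart, had 1.45, 0.78, 1.42 and 1.44 (mean 1.27 ± 0.19, adjusted p = 0.00108). Slc15a1b, the peptide transporter of enterocytes, had 1.65, 0.34, 1.47 and 1.66 (mean 1.28 ± 0.24, adjusted p = 0.0045). Wt1a, a transcription factor of kidney podocytes and of the gonad, had 1.27, 1.27, 1.38 and 0.46 (mean 1.09 ± 0.20, adjusted p = 0.00407). In each case 3 arrays lay together and 1 was lower, replicate 2 for nppa and slc15a1b and replicate 4 for wt1a, and all 3 calls held without any 1 array.

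In the heart and intestine lists calls went both ways. Of 7 tested heart genes 1 was higher and 1 lower (14.3% each, against 7.22% and 11.8% of all genes), and the median was -0.31. The lower gene was fhl2a of the second set (-1.83 ± 0.23, or -1.13 with separate curves). Of 13 intestinal genes 2 were higher and 1 was lower (15.4% and 7.69%), with a median of -0.11. Besides slc15a1b, the higher gene was tm4sf5 (0.70 ± 0.19, adjusted p = 0.0267). Of 8 genes of steroid synthesis and sex differentiation 3 were higher (37.5%, against 7.22% of all genes) and none lower, with a median of 0.05. Besides wt1a these were cyp17a1, the steroid 17-hydroxylase (0.72 ± 0.22), and, in the second set, insl3, a peptide of Leydig cells (0.70 ± 0.19, or 0.68 with separate curves). The calls of tm4sf5, cyp17a1 and insl3 were lost without replicate 1 or 3 (adjusted p up to 0.23), and that of cyp17a1 also with every spot kept (adjusted p = 0.056). With every spot kept, 2 of the 22 steroid and sex differentiation genes on the array were higher and none lower (median -0.17). Of all genes 3.47% were higher in that setting. Without replicate 4, 3 genes of this list were higher and 1 lower, of 8.

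Photoreceptor genes gave calls of both signs. Of 30 tested genes 4 were higher and 2 lower (13.3% and 6.67%, against 7.22% and 11.8% of all genes). The median was -0.13, and in the first set 3 and 2 of 21 were called. The transcription factors crx and nr2e3, which direct photoreceptor fate, had 1.24, 1.19, 0.94 and 0.20 (mean 0.89 ± 0.21, adjusted p = 0.015) and 1.37, 0.68, 1.06 and 0.54 (mean 0.91 ± 0.20, adjusted p = 0.00868). Gnat2, the transducin of cones, averaged 0.83 ± 0.20 (adjusted p = 0.0158) and sagb, an arrestin measured in the second set, 0.75 ± 0.21 (adjusted p = 0.0314, and 0.725 with separate curves). All 4 had signal above background in both channels on all 4 arrays.

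The lower photoreceptor genes were dim in larvae. The ultraviolet cone opsin opn1sw1 had -1.79, -0.48, -0.58 and -0.95 (mean -0.95 ± 0.24, adjusted p = 0.0179, at least 1.60-fold), and prph2b, a protein of the outer segment discs, averaged -0.86 ± 0.20 (at least 1.36-fold). Each of these 6 calls was lost without 1 or more arrays. Leaving out replicate 1 ended those of crx, nr2e3, gnat2 and opn1sw1, leaving out replicate 2 those of crx, sagb and prph2b, and leaving out replicate 3 those of crx, nr2e3, sagb and prph2b (adjusted p up to 0.20). Without replicate 4, 4 members were higher and 6 lower.

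Lens genes differed by probe set. The list of lens crystallins also holds the lens membrane proteins mipb, lim2.1 and lim2.5. Among its 18 tested genes, 1 was higher and 4 lower, mipb among the latter (5.56% and 22.2%, against 7.22% and 11.8% of all genes, median -0.15). Of the 18 genes, 77.8% were read on a second-set probe, and of all tested second-set probes 39.8% were lower. On first-set probes 1 of 5 was higher and 1 lower, the latter on a dimmer probe of a gene not called on its second-set probe. With separate curves, 2 were higher and 2 lower, and the median was 0.01. The crystallin cryba4 had 0.64, 0.64, 1.02 and 1.63 (mean 0.98 ± 0.21, adjusted p = 0.00864) and lost its call without replicate 3 (adjusted p = 0.058). In the second set cryba2a averaged -2.41 ± 0.22 (-1.75 with separate curves, at least 1.54-fold), and crygm5 had -1.03, -1.20, -1.35 and -0.74 (mean -1.08 ± 0.18, adjusted p = 0.00213, and -0.88 with separate curves).

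Neuronal genes also divided, with 3 of 29 higher and 5 lower (10.3% and 17.2%, against 7.22% and 11.8% of all genes) and a median of 0.01. Vamp2, the synaptobrevin of synaptic vesicles, had 2.15, 0.92, 1.40 and 0.79 (mean 1.31 ± 0.24, adjusted p = 0.00361), while its other tested probe averaged -0.19. Tph2, the enzyme of serotonin synthesis in the brain, had 1.23, 0.65, 0.64 and 0.70 (mean 0.81 ± 0.18, adjusted p = 0.0112), and nsg2, a neuronal vesicle protein, averaged 0.64 ± 0.19 (adjusted p = 0.0358). Neurogranin, nrgna, a calmodulin-binding protein of mature dendrites, was lower with close agreement among the arrays, at -1.39, -1.61, -1.61 and -1.40 (mean -1.50 ± 0.17, adjusted p = 0.00024, at least 1.62-fold).

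The sodium pump subunit atp1a3a was lower at -0.69 ± 0.19 (adjusted p = 0.0254), and camk2a, a synaptic kinase of the second set, averaged -2.20 ± 0.22, or -1.43 with separate curves. The calls of vamp2, nrgna and camk2a held without any 1 array. Those of tph2, nsg2 and atp1a3a were lost without replicate 1 or 3, and those of nsg2 and atp1a3a also without replicate 2 (adjusted p up to 0.13). Among 41 genes of neurogenesis and patterning, 1 was higher and 2 lower (2.44% and 4.88%, against 7.22% and 11.8% of all genes, median -0.04). The higher gene, her9, a Hairy-related repressor, had 0.66, 0.82, 1.15 and 0.82 (mean 0.86 ± 0.17, adjusted p = 0.00621). It lost its call without replicate 3 (adjusted p = 0.080). The 2 lower members were second-set genes, hoxa9b (below) and sox19a (-1.17 ± 0.24, or -0.73 with separate curves), and the call of sox19a was lost without replicate 3 (adjusted p = 0.11).

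Hox genes, which give position along the body axis, had a median of -0.74, with 8 of 16 lower (50%, against 11.8% of all genes) and none higher. All 8 lie in the second set, and the 5 Hox genes of the first set had a median of -0.03 and no call. With separate curves 5 were lower and the median was -0.35, above that of the exocrine pancreas (-0.50), and with every spot kept it was -0.27. Hoxb7a and hoxd4a averaged -2.44 and -2.43 (-1.55 and -2.12 with separate curves), hoxa9b -1.49 (-1.36) and hoxa9a -1.18 (-0.87), and another tested probe of hoxd4a averaged -1.36. Hoxa9a had -0.92, -1.59, -1.08 and -1.11, with adult signal above background on all 4 arrays and larval signal on none (at least 1.97-fold), and all 4 calls held without any 1 array. The list of ligands of the Wnt, Fgf, Bmp, Hedgehog and Notch pathways also holds the inhibitors chrd, nog3, sfrp1a and spry2. Its 15 tested members gave no call in limma, with a median of -0.04, and 1 was lower at an unadjusted p under 0.05.

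Genes of DNA replication and the cell cycle were called in both directions, 5 higher and 8 lower of 48 (median -0.08). These are 10.4% and 16.7%, against 7.22% and 11.8% of all genes. In the first set 4 of 37 were higher and 1 lower, with a median of 0.08. Besides mcm7, the higher genes included pola1, the catalytic subunit of DNA polymerase alpha, with 0.84, 0.38, 1.56 and 0.58 (mean 0.84 ± 0.22, adjusted p = 0.0227), cdca8, a subunit of the chromosomal passenger complex (0.88 ± 0.23), and rpa1, which binds single-stranded DNA (0.65 ± 0.19). All 3 calls were lost without replicate 3, those of pola1 and rpa1 also without replicate 1, and that of rpa1 without replicate 2 (adjusted p up to 0.19).

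The lower members lay mostly in the second set. The clamp loader subunit rfc5 averaged -2.72 ± 0.17 and the mitotic kinase cdk1 -2.58 ± 0.19, or -2.21 and -1.86 with separate curves, and rfc5 had -2.49, -2.83, -2.79 and -2.75 on the 4 arrays. Rrm1, a ribonucleotide reductase subunit with signal in both channels, averaged -1.18 ± 0.23 (-1.11 with separate curves), and its other tested probe averaged -0.18. With the plates centred on their medians, rrm1 stood at -0.38 (adjusted p = 0.32). The kinase aurkb had -2.0, -2.34, -2.0 and -0.23 (mean -1.64 ± 0.32, and -0.99 with separate curves).

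Ribosomal protein genes had ratios a little below 0. Of 59 tested genes, 45 had a mean ratio below 0 (76.3%, against 52.5% of all genes), with a median of -0.22, and 5 passed the test, all lower (8.47%, against 11.8% of all genes). With separate curves 1 was higher and 8 lower, and with every spot kept 3 of 68 were lower. The higher gene, named after its value was seen, was rplp1 of the second set, at 0.69 (adjusted p = 0.034), against 0.36 with a single curve (adjusted p = 0.198). In the first set the median of 51 genes was -0.19, and 4 were lower. Rps28 had -1.16, -1.03, -0.98 and -0.65 (mean -0.96 ± 0.18, adjusted p = 0.00361, and -0.92 with separate curves). Rpl13 had -0.73, -0.49, -0.58 and -0.81 (mean -0.65 ± 0.17, adjusted p = 0.021), rps18 averaged -0.67 ± 0.17 and rack1, which sits on the small subunit, -0.84 ± 0.21. Of these 4, the call of rps28 held without any 1 array, and those of rpl13, rps18 and rack1 were lost without replicate 1, 2 or 3 (adjusted p up to 0.13). With every spot kept, rack1 stood at -0.48 (adjusted p = 0.28). Without replicate 4, 10 members were lower and none higher. With median centring in place of loess, which raised the median of all tested probes from -0.05 to 0.10, rpl13 stood at -0.43 (adjusted p = 0.11) and rps18 at -0.45 (adjusted p = 0.13).

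Matrix and skin genes were mostly lower where called. Of 10 genes of bone, scale and fibrillar collagen 2 were lower (20%, against 11.8% of all genes) and none higher (median -0.21). These were col1a2, a chain of type I collagen, with -1.59, -0.58, -1.04 and -0.41 (mean -0.91 ± 0.22, adjusted p = 0.0166, at least 1.41-fold), and col5a2a, which had -1.36, -1.0, -0.44 and -0.53 (mean -0.83 ± 0.21, adjusted p = 0.0169). Of 9 cartilage genes 1 was higher (11.1%, against 7.22% of all genes) and none lower (median -0.25). The higher gene, the link protein hapln3, had 0.58, 0.15, 1.06 and 1.84 (mean 0.91 ± 0.27, adjusted p = 0.0357). These calls were lost without replicate 1 (col1a2, col5a2a), 2 (col5a2a) or 3 (col1a2, hapln3), with adjusted p up to 0.15.

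In the list of epidermis and keratins 1 of 29 genes was higher and 7 lower (3.45% and 24.1%, against 7.22% and 11.8% of all genes, median -0.16). In the first set this was 1 and 3 of 20 (median 0.04). The basement membrane protein fras1 had -1.74, -1.47 and -1.63 on replicates 2 to 4 (mean -1.61 ± 0.20, adjusted p = 0.000708, at least 1.26-fold), with the arrays close together. The desmosome protein dspa averaged 0.70 ± 0.19 on its brighter probe and -1.69 on the other, and lost its call without replicate 1 or 3 (adjusted p up to 0.16). In the second set eppk1, a plakin, and the keratin krt96 averaged -2.56 and -2.09, or -1.71 and -1.24 with separate curves.

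Immune, mitochondrial and chaperone genes were called in both directions. Among 17 myeloid genes 2 were higher and 1 was lower (11.8% and 5.88%, against 7.22% and 11.8% of all genes, median -0.02). Both higher genes lie in the second set. Cyba, a subunit of the phagocyte oxidase, had 1.59, 0.79, 0.84 and 1.20 (mean 1.1 ± 0.20, adjusted p = 0.00298, and 1.12 with separate curves). C1qa, of the complement C1 complex, had 0.91, 0.65, 0.78 and 0.42 (mean 0.69 ± 0.17, adjusted p = 0.019, and 0.75 with separate curves). The protease ctsc was lower at -1.61 ± 0.20 (-1.11 with separate curves), and its other tested probe averaged -2.45. Among 28 genes of oxidative phosphorylation 2 were higher and 2 lower (7.14% each, against 7.22% and 11.8% of all genes, median 0.05). Of these, ndufa4b stood at 0.87 ± 0.21, cox6b2 of the second set at 0.69 ± 0.21 (0.71 with separate curves) and sdhda at -1.83 ± 0.29 (-1.13 with separate curves). The complex IV gene cox6b2 lost its call without any 1 of the 4 arrays (adjusted p up to 0.17).

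Among 22 chaperones 3 were higher and 3 lower (13.6% each, against 7.22% and 11.8% of all genes, median -0.07), and with separate curves 2 and 1. The co-chaperone stip1 averaged 0.79 ± 0.18, the chaperonin subunit cct5 0.67 ± 0.19 and the constitutive Hsp70 hspa8 -0.71 ± 0.19. The calls of c1qa and hspa8 were lost without replicate 1, 2 or 3, those of cct5 and ndufa4b without 1 or 3 and that of stip1 without 3 (adjusted p up to 0.18), while those of cyba, ctsc and sdhda held without any 1 array. Of 15 pituitary and endocrine genes 2 were higher and 1 lower (13.3% and 6.67%, against 7.22% and 11.8% of all genes, median 0.01). The lower gene was the glucagon gene gcga of the second set (-1.73 ± 0.29, or -1.30 with separate curves), whose other tested probe averaged -0.56. Without replicate 4, 6 chaperones were lower and 3 higher.

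**Figure D5:**
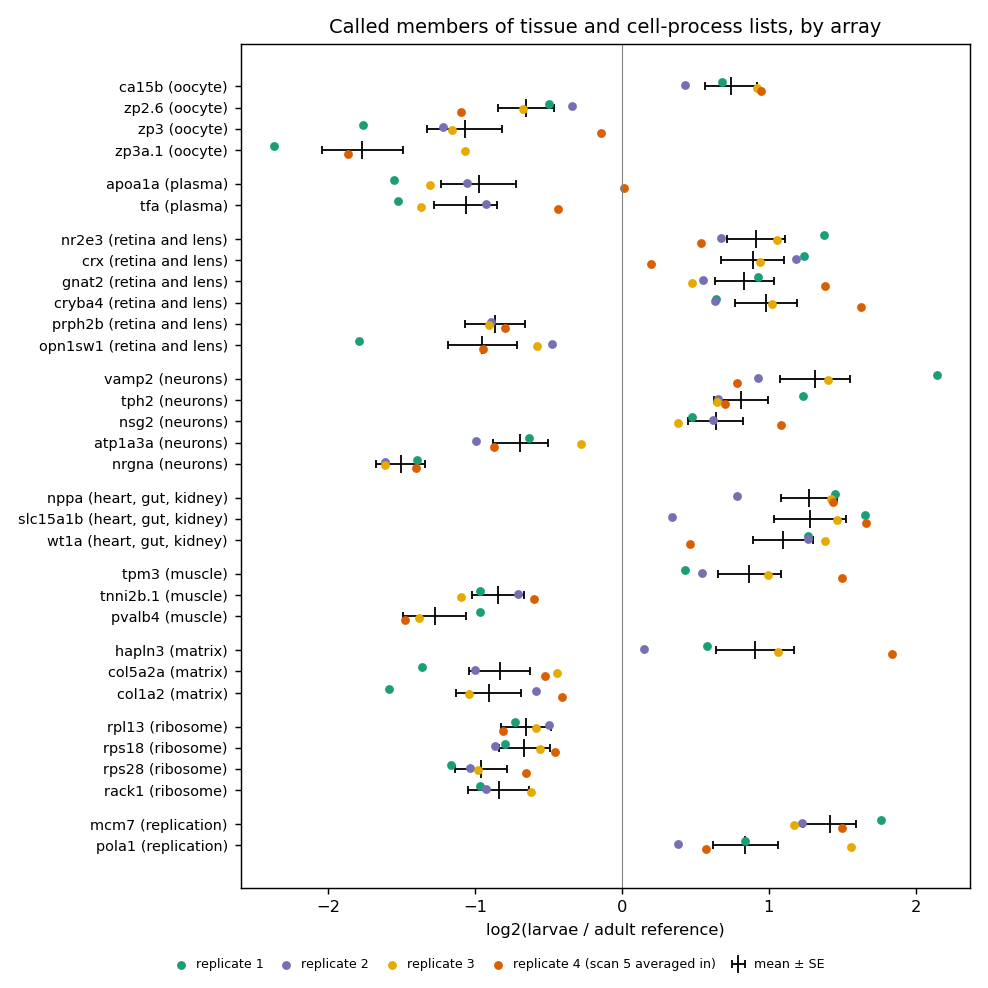
Log2 ratio of larvae over the adult reference (x axis) on each control array for called genes picked from the gene lists, with bars for the mean ± SE of limma. Genes are grouped by tissue or process (y axis), and many called members are not drawn. Those left out include cdk1, rfc5, rrm1 and aurkb of the replication list, fhl2a of the heart list and ctsba of the intestine list, all lower in larvae. Nppa, slc15a1b, wt1a, vamp2 and mcm7 have means above 1, and zp3, zp3a.1, tfa, nrgna and pvalb4 have means below -1.

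Markers of single cell types gave 2 calls. Of 41 markers, 33 were on the array and 22 could be tested. None was higher (1 at an unadjusted p under 0.05) and 2 were lower (5 at an unadjusted p under 0.05), zp3 of the oocyte and tfa of the liver. Of all genes 7.22% were higher and 11.8% lower, and whether the markers differ from these shares was not tested. The 22 mean ratios lay between -1.07 and 0.45 with a median of -0.31. Larval signal was above background on no array for 12 of the 33, and adult signal on no array for 1. Markers of male and female germ cells (4 on the array) could not be tested for lack of kept values, and the 4 tested genes of the longer list of germline and meiosis gave no call (median -0.25), and 1 of them was lower before adjustment, at a p under 0.05. When spots without a deposited ratio were kept too, the germ cell gene piwil1 stood at 0.74 ± 0.21 (adjusted p = 0.0468). Its larval and its adult signal were each above background on only 1 array. The other germ cell markers ddx4, dazl and sycp3 stood at 0.095 ± 0.28, 0.13 ± 0.18 and -0.015 ± 0.19 and did not pass. Their larval signal was above background on no array and their adult signal on 2, 3 and 3 arrays, so these ratios do not show equal amounts. In the same setting the photoreceptor marker opn1lw1 stood at -0.79 ± 0.20 (adjusted p = 0.033), with no larval signal above background. The list of glia and myelin gave no call among 8, also at an unadjusted p under 0.05 (median -0.22). That of adaptive immunity gave 1 lower among 13 (median -0.10), and that of sperm tail and motile cilia 1 lower among 13 (median -0.06). These are 7.69% each, against 11.8% of all genes.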

How the data were processed

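The deposited files hold unnormalized foreground and background intensity values of both channels, read by the authors with GenePix Pro 4.0 from spotted oligonucleotide arrays, and the share of pixels above background in percent. The authors also deposited Lowess-normalized log2 ratios of the spots they did not mark as bad. In 1 file, 16654 lines without a ratio are shifted by 1 column, which was corrected. In limma 3.58.1 (R 4.3.3), background correction was by normexp (offset 50, from mean foreground and median background), followed by loess within arrays. Spots without a deposited ratio were left out, and repeated scans and spots of an accession were averaged. Probes with at least 3 values (2 where 1 array was left out) were tested against 0 and adjusted by Benjamini-Hochberg. The number of arrays limits the precision, and p-values measure only the spread between these pools. The other 13 scans were not tested.

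Symbols cover 11724 spots (9264 symbols), by accession for 55, current symbol for 3538 and older name for 8000. Named are the 10 highest and 10 lowest called genes, per list up to 4 called members in each direction and up to 2 bright ones that were not, all members of the zona pellucida, vitellogenin and globin lists, and markers. Not every gene that these rules picked is named in the text. Among the called genes left out are e2f4 and pax8 (higher) and serpinh1a, calr3b, anxa1c and ctsba (lower). Nr3c1, clic1, acyp1, apoa1a, rpa1 and tnni2b.1 were added after their values were seen. The members and lists were chosen with earlier results of these data known. In simulated arrays with 8663 probes and 200 changed, 85% of changes of log2 1 were recovered, and 17 unchanged probes were called. The simulated noise was independent between probes and arrays. The difference between the probe sets and the distance of replicate 4 were not simulated, so these values need not hold for the real arrays. The spots' positions on the slide are not given in the sources used here.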

Additional observations from a re-analysis of the deposited data

Results flagged for a closer look

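In 8 of the 83 named genes with values on all 4 arrays, 1 array lay far from the other 3. Chance flags about 1 in 20 groups. Over all 5084 probes with 4 values it did so in 342 (6.73%), and in 224 of these (65.5%) the outlying array was replicate 4.

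Replicate 4 was the outlying array for clptm1 (2.762, others 0.88 to 1.07), acyp1 (-1.174, others -1.84 to -1.75), dnajc5gb (1.174, others -0.10 to -0.03), wt1a (0.4612, others 1.27 to 1.38) and aurkb (-0.2278, others -2.34 to -1.998). Replicate 2 was low for nppa (0.7845, others 1.42 to 1.45) and slc15a1b (0.3441, others 1.47 to 1.66), and replicate 1 was high for tph2 (1.233, others 0.64 to 0.70). The percentage of first-set spots with a log2 ratio of -1 or below was 4.936% on replicate 4 and 1.79% to 1.95% on the others.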

How the results depend on the processing

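Of 98 called named genes, 53 kept their call whichever array was left out, and 45 lost it at least once, 42 of them without replicate 3. These fits needed 2 values per probe and adjusted over other numbers of probes than the main fit. A lost call thus mixes the missing array with the changed set of tests. No called named gene changed direction. Leaving out 1 array gave 160 to 737 probes higher and 1006 to 1774 lower, and 121 to 293 and 981 to 1650 with a log2 size of at least 1. Every spot kept gave 2640 lower (1873 by log2 1), and a value on all 4 arrays 709 (477). The authors' ratios gave 745 lower (173) and 31 higher by log2 1, and 22 named genes lost their call. No background correction gave 13 higher and 354 lower by log2 1, median centring 1055 higher (390), 5 separate scans 1373 higher and 2425 lower, and array weights 1134 higher. Of the alternatives chosen after seeing the data, the first set alone gave 399 higher and 175 lower (86 by log2 1), centred plates 920 higher (298), separate curves 735 lower by log2 1, and with every spot 1186 higher (317). The share of calls that were higher was 30.3%, but 44.8% with the authors' ratios, 45.4% with median centring, 44.7% with all 4 arrays, 45.5% with centred plates, 36.3% with array weights, 69.5% in the first set alone, 42.9% with separate curves and every spot, and 17.5% and 13.7% without replicates 1 and 3. The cause was not tested. The calls of cyp17a1, rpa1, rack1, hapln3, cel.2 and cox6b2 were lost with every spot kept (adjusted p = 0.0503 to 0.278).

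Only genes that were not called changed sign. Ccnb2 stood at -0.039 with array weights and from -0.11 to 0.27 without 1 array, and dnajc5gb from -0.071 to 0.35. The vtg2 log2 ratio stood at -0.018 with every spot, -0.0007946 with correction for spot order, -0.077 with separate scans, -0.11 with separate curves and in the first set alone, -0.15 with separate curves and every spot and -0.10 with centred plates, and from -0.10 to 0.21 without 1 array. Hbae3 stood at -0.038 with every spot, -0.18 with array weights, -0.018 with separate curves and in the first set alone, -0.14 with separate curves and every spot, and from -0.079 to 0.38 without 1 array. Hbbe3 stood at 0.12 with separate curves and every spot and 0.056 with centred plates, and ckma at 0.012 with median centring. No paired analysis was possible because the ratio within an array is itself the paired comparison of larvae with reference, and 1 group leaves no replicate numbers to pair across groups. Low signal limits the lower ratios, since the larval channel was above background on no array for 82.4% of the lower probes.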
